A study of Mus musculus with 15 samples.

Results

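RNA was sequenced from the striatum and the cerebral cortex of wild-type mice, and the tissues were compared with each other. The comparison used 8 of the 15 libraries of a series on Slc1a4, which encodes ASCT1, a transporter of neutral amino acids: 4 libraries of striatum and 4 of cortex, numbered 5 to 8 in each tissue. Their donors were male C57Bl/6 mice aged 5 months with the genotype Wild Type and no treatment named. The remaining libraries, 3 of striatum (numbered 2 to 4) and 4 of cortex (numbered 1 to 4), came from SLC1a4 -/- mice (KO) of the same strain, sex and age, and served as a second set of samples for the same contrast. Of the 26595 genes in the deposited table, the 16527 that reached a normalized count of 10 in at least 3 of the 8 wild-type (WT) libraries were members. Of these, 279 passed only through striatum libraries and 254 only through cortex libraries, and genes of this kind had to differ. Of those named below, Avp, Calcr, Cckar, Crabp1, Drd3, Dsp, Frem3, Gabre, Gal, Gbx2, Hcrt, Iyd, Oxt, Sds, Shox2, Tmem72 and Upb1 passed only through striatum and Ccdc129, Chrnb3, Cort, Krt80, Mylk3, Ovol2 and Trbc2 only through cortex. Their direction followed from the filter, as did the separation of their groups where all 4 libraries of that tissue reached 10. Their values are a description. The list counts and medians below include such members, and none was made without them. The 370 members with exactly 3 libraries at 10 or more had a median normalized count of 8.64, and the 387 genes with 2 such libraries, just outside the rule, one of 7.12. The labels do not say whether the 8 libraries came from 4 or 8 mice, nor how the tissue was cut. The p-values therefore measure only the spread between these samples, which may be technical.

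The striatum is the input nucleus of the basal ganglia and is built mainly of GABA-releasing medium spiny neurons. These fall into a direct pathway with D1 dopamine receptors, dynorphin and substance P and an indirect pathway with D2 dopamine receptors, adenosine receptors encoded by Adora2a, and enkephalin. The cerebral cortex is a layered sheet of mostly glutamate-releasing projection neurons with GABA interneurons among them, and the white matter, ventricle walls, septum, pallidum, thalamus and hippocampus lie close to both. In bulk tissue such as this, fewer cells of a type and less RNA per cell cannot be told apart.

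A series of 4 values gives replicates 5, 6, 7 and 8 in that order, striatum first and cortex after "against". A single number in brackets after a gene is its log2 fold change. Values are normalized counts, that is, read counts divided by 1 size factor per library. A log2 fold change is striatum minus cortex on the scale of log2(normalized count + 1), so that a value of 1 is close to a 2-fold higher level in striatum, and the scale understates changes of low genes. Calls rest on limma p-values below 0.05 after Benjamini-Hochberg adjustment over all 16527 genes. Means are given with their SD (n = 4 per tissue throughout) and fold changes with their standard error (SE).

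Of the 16527 genes 8425 were called (51.0%), 4167 higher in striatum (25.2%) and 4258 lower (25.8%). Many of these differences were small: 4249 of the called genes differed by less than 1.5-fold, and the median size over the called genes was 0.58 on the log2 scale. At least 2-fold differences were called for 2370 genes (14.3%), 1196 higher (7.24%) and 1174 lower (7.1%). At least 4-fold differences numbered 403 higher and 352 lower, and at least 16-fold differences 64 higher and 53 lower. The 4 striatum values and the 4 cortex values did not overlap for 7930 genes (48.0%). Shares of members given below are read against these percentages. The median log2 fold change of all genes tested was 0.01.

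The genes at least 2-fold higher in striatum took 5.66 to 6.78% of all counts in the striatum libraries and 1.56 to 2.13% in the cortex libraries. Those at least 2-fold lower took 2.51 to 2.99% in striatum and 7.56 to 7.93% in cortex. Of 405 long intergenic RNAs 121 were lower in striatum and 66 higher, and of 402 antisense RNAs 96 were lower and 61 higher. The share lower was somewhat above the 25.8% of all genes for long intergenic and somewhat below it for antisense RNAs. The share higher was below the 25.2% of all genes for both. Of 14655 protein-coding genes 3745 were lower and 3934 higher. The strand setting of the authors' counting is not given in the sources used here, so reads of an antisense RNA and of its partner cannot be told apart.

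Recovered read totals were 22990233 to 25697792 for the striatum and 26791109 to 29342263 for the cortex. On the first principal component, which held 72.7% of the variance, the tissues stood apart. The second held 9.93% and set striatum replicate 5 at one end and striatum replicate 8 at the other. These libraries also stood apart in their marker genes, as described below, and for some of the lists counts or medians are given without them too. No pair of replicates agreed within counting noise.

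The 4 marker genes followed the tissue labels in all 8 libraries. Drd2, the D2 dopamine receptor (ENSMUSG00000032259, chromosome 9, positions 49340627 to 49408177, plus strand, GRCm38), stood at 3841, 2610.3, 3362 and 1748 in striatum and at 241, 105, 15.5 and 347 in cortex (limma log2 fold change 4.65, SE 0.79, adjusted p = 8.0e-04). Adora2a, an adenosine receptor of indirect pathway neurons (ENSMUSG00000020178, chromosome 10, positions 75316877 to 75334784, plus strand), stood at 8569.9, 4946, 6726 and 3421 in striatum and 586, 164, 51.2 and 559 in cortex (limma log2 fold change 4.6, SE 0.68, adjusted p = 3.5e-04). Both were lowest among striatum libraries in replicate 8, and in cortex both were lowest in replicate 7. Emx1, a homeobox factor of the developing and adult cortex (ENSMUSG00000033726, chromosome 6, positions 85187438 to 85204462, plus strand), stood at 13.6, 4.06, 15.7 and 13.8 in striatum and 515, 488, 666 and 469 in cortex (limma log2 fold change -5.51, SE 0.34, adjusted p = 1.6e-06). Neurod6, a basic helix-loop-helix factor of cortical excitatory neurons (ENSMUSG00000037984, chromosome 6, positions 55677822 to 55681263, minus strand), stood at 56.9, 25.4, 147 and 105 against 1774, 1808, 1538 and 1941 (limma log2 fold change -4.65, SE 0.43, adjusted p = 1.9e-05). No striatum library reached the level of any cortex library for either cortical gene, and no cortex library reached any striatum library for either striatal gene.

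The striatal markers differed more among cortex libraries than the cortical markers did. Between the highest and the lowest cortex library Drd2 differed 22.3-fold and Adora2a 11.4-fold, whereas Emx1 differed 1.42-fold and Neurod6 1.26-fold. Among the 403 genes at least 4-fold higher in striatum, the lowest cortex value lay in replicate 7 for 238 and the highest in replicate 8 for 198. Among the 4 striatum libraries, the lowest value of these genes lay in replicate 8 for 195. The size of the striatal markers' difference therefore depended on cortex replicate 7: without it the log2 fold change was 3.74 for Drd2 and 3.89 for Adora2a, and both remained called. Slc1a4 itself did not differ between the WT tissues beyond the spread, at 1533 ± 217 in striatum and 1624 ± 127 in cortex (limma log2 fold change -0.09, SE 0.10, adjusted p = 0.49).

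**Figure D1:**
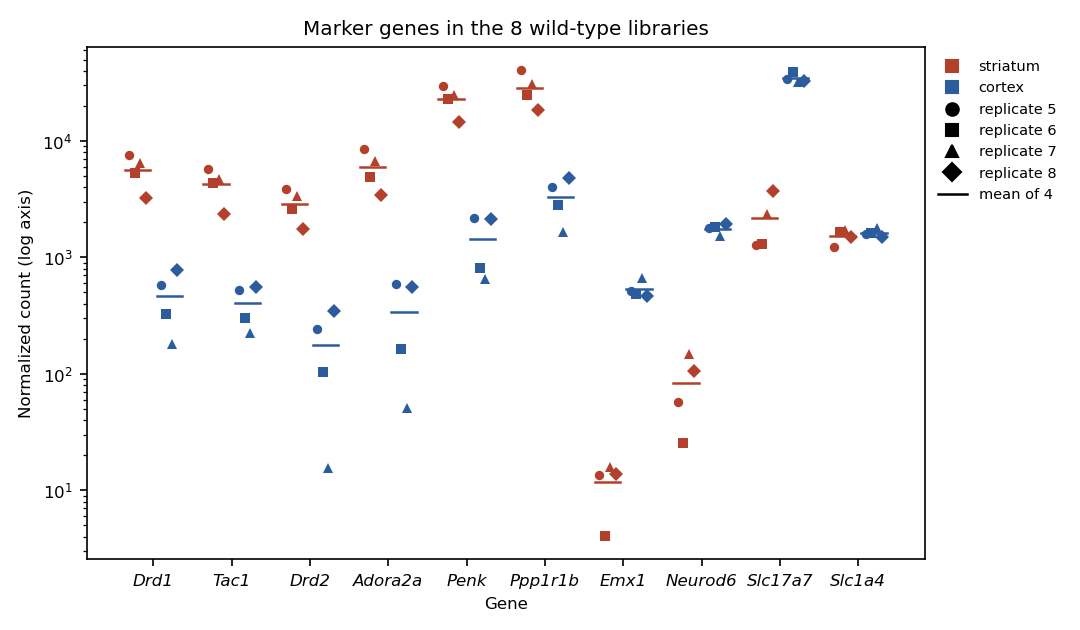
Normalized counts (log axis) of 6 striatal genes, 3 cortical genes and Slc1a4 in the 4 striatum (red) and 4 cortex (blue) WT libraries, with a symbol per replicate number and a bar at the mean. The striatal genes are lowest in replicate 8 among striatum libraries and in replicate 7 among cortex libraries, and Slc1a4 overlaps between the tissues.

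Direct pathway markers were higher in striatum for 8 of 9 genes, with a median log2 fold change of 2.14 against 0.01 for all genes. Drd1, the D1 dopamine receptor, stood at 7618, 5311, 6458 and 3218 in striatum and 583, 329, 180.1 and 780.0 in cortex (limma log2 fold change 3.73, SE 0.42, adjusted p = 6.2e-05). Tac1, the precursor of substance P and neurokinin A, stood at 5797, 4349.8, 4718 and 2356 in striatum and 522, 302, 224 and 559 in cortex (limma log2 fold change 3.44, SE 0.33, adjusted p = 2.3e-05). Pdyn, the dynorphin precursor, showed a smaller difference, at 3012 ± 552 in striatum and 733 ± 47.5 in cortex (4.11-fold). Isl1, a LIM homeobox factor of direct pathway and cholinergic neurons, stood at 529, 512, 475 and 489.6 in striatum and at 20.7, 2.85, 0.914 and 25.1 in cortex (limma log2 fold change 5.96, SE 0.73, adjusted p = 1.0e-04). In striatum it varied little, whereas its cortex values spanned from 0.914 to 25.1, and without cortex replicate 7 its log2 fold change was 5.27. Eya1 was the member lower in striatum (-0.72), named after its values were seen. The difference between direct pathway and indirect pathway lists was not tested.

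Indirect pathway markers were higher in striatum for 6 of 9 genes and lower for 2 (median 2.95). Penk, the enkephalin precursor, stood at 29406, 22905, 24577 and 14661 in striatum and 2187, 806, 649.9 and 2158 in cortex (limma log2 fold change 4.14, SE 0.40, adjusted p = 2.2e-05), 15.8-fold higher on the means. Gpr6, an orphan receptor of indirect pathway neurons, stood at 1378 ± 477 against 99.2 ± 59.0 (3.92), Sp9, a zinc finger factor, at 552 ± 112 against 115 ± 27.2 (2.26), and Upb1, beta-ureidopropionase, at 56.8 ± 14.8 against 6.46 ± 2.08 (2.95). Each of these had its striatum maximum in replicate 5 or 7 and its minimum in replicate 8. The lower members were Plxdc1 (-0.61) and the delta opioid receptor Oprd1 (-0.38), named after their values were seen. Sp9 overlaps Cir1 on the opposite strand, which leaves the division of their reads uncertain. The summed level of the list was 47921, 36544, 41135 and 24928 in striatum and 8142, 6231, 4654 and 8944 in cortex. Penk alone held 14661 to 29406 of this sum in striatum, so that the sum says less of the other members.

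The signalling proteins downstream of dopamine and adenosine receptors were higher in striatum for 22 of 26 members and lower for 1 (median 1.78). Ppp1r1b, which encodes the phosphatase inhibitor DARPP-32, stood at 40449.7, 24788, 30714 and 18406 in striatum and 3994, 2829.7, 1644 and 4809 in cortex (limma log2 fold change 3.16, SE 0.33, adjusted p = 3.6e-05). Gnal, the olfactory-type G protein alpha subunit that couples D1 dopamine and Adora2a receptors to adenylyl cyclase in striatum, stood at 21289 ± 3856 against 5624 ± 278 (1.90) and overlaps Mppe1 on the opposite strand. Its partner Gng7 stood at 24271 ± 6797 against 3286 ± 832 (2.87) and the cyclase Adcy5 at 30482 ± 7812 against 5308 ± 1009 (2.50). The chain from receptor to cyclase was thus higher at each of these steps. Prkch, a protein kinase C, differed with little spread (1241 ± 148 against 129 ± 24.5; limma log2 fold change 3.27, SE 0.14, adjusted p = 2.4e-07). Rgs8, a regulator of G protein signalling, stood at 5909.6, 5893, 6110.3 and 5742 against 2737, 2720.3, 2779 and 3231 (1.05) and was not lower in replicate 8 in the way of Ppp1r1b. Itpka, an inositol trisphosphate kinase of dendritic spines, was the member lower in striatum (-0.83), named after its values were seen.

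The phosphodiesterases, which break down cyclic AMP and cyclic GMP, divided between the tissues: 9 of 20 were higher in striatum and 5 lower (median 0.18, or 0.33 without striatum replicate 8). Pde10a, the characteristic phosphodiesterase of medium spiny neurons, stood at 40033, 30469, 38014 and 19111 in striatum and 4919, 3178, 2678 and 5899 in cortex (limma log2 fold change 2.95, SE 0.28, adjusted p = 2.3e-05). Pde1b (2.38), Pde1c (2.44), Pde7b (1.96) and Pde3a (2.14) were also higher. Pde4a, a cyclic AMP phosphodiesterase, was lower at 1985 ± 172 against 3637 ± 306 (-0.87). Of the calmodulin-regulated Pde1 family, Pde1b and Pde1c were higher whereas Pde1a was lower (-2.06, limma adjusted p = 4.2e-05), the last named after its values were seen. Unc13c, a priming protein of synaptic vesicles and one of the abundant genes with the largest differences, stood at 8029.6, 9533, 9477 and 8725 in striatum and 1209, 1043, 1027 and 1565 in cortex (2.90).

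Transcription factors of striatal neurons were higher in striatum for 24 of 25 members, with none lower and a median of 1.96. The exception was Dlx1 (-0.18, limma adjusted p = 0.27). Six3, a homeobox factor needed for indirect pathway neurons, stood at 2941, 2299, 2247 and 2036 in striatum and 73.5, 31.4, 2.74 and 71.2 in cortex (limma log2 fold change 6.38, SE 0.79, adjusted p = 1.2e-04). Without cortex replicate 7 its log2 fold change was 5.40, and its reads cannot be told apart from those of the antisense RNA Six3os1 (5.94). Pbx3 stood at 1755 ± 327 against 222 ± 19.1 (2.96), Zfp521 at 791 ± 42.8 against 247 ± 21.4 (1.68), Zfp503 at 568 ± 23.1 against 118 ± 25.2 (2.28) and Meis1 at 395 ± 34.5 against 75.1 ± 16.5 (2.40). These factors varied less over the striatum libraries than Drd2 did, at 580.0, 571, 586 and 534 for Zfp503 and 739, 821, 831 and 774 for Zfp521. Id4, an inhibitor of helix-loop-helix factors (1.73), and Dlx5, a homeobox factor of GABA neurons (1.84), were also higher.

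Retinoic acid is made from retinal by aldehyde dehydrogenases, is carried by binding proteins to receptor heterodimers in the nucleus and is cleared by Cyp26 enzymes. Among 17 genes of this pathway 5 were higher in striatum and 2 lower (median 0.10), beside 51.0% of all genes called, and the median was 0.03 without striatum replicate 5, 0.18 without replicate 7 and 0.23 without replicate 8. Rarb, the beta receptor, stood at 3146, 2189, 2459 and 1403 in striatum and 370.1, 227, 181 and 386 in cortex (limma log2 fold change 2.99, SE 0.28, adjusted p = 2.2e-05). Rxrg, its gamma-type partner, stood at 2714, 1449.9, 2242 and 896 in striatum and 145, 87.5, 28.3 and 203 in cortex (limma log2 fold change 4.16, SE 0.55, adjusted p = 1.7e-04). Both followed the order of the medium spiny neuron markers over the libraries, with replicate 8 lowest in striatum. Rara, the alpha receptor, was lower in striatum (127, 112, 158 and 137 against 216, 266, 197 and 338, -0.90), and Rarg, Rxra and Rxrb lay between -0.10 and 0.10 and were not called. The binding protein Crabp1 was higher (116 ± 11.6 against 5.96 ± 4.23, 4.36), as were the synthesizing enzyme Aldh1a1 (1948 ± 457 against 941 ± 137, 1.03) and the clearing enzyme Cyp26b1 (95.5, 312, 254 and 369.9 against 67.8, 81.8, 49.4 and 53.1, 1.88). Aldh1a1 and Cyp26b1 were highest, not lowest, in striatum replicate 8. Rarb overlaps Top2b on the opposite strand.

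Transcription factors of cortical projection neurons were lower in striatum for 27 of 34 members and higher for 4 (median -1.30). Tbr1, a T-box factor of deep layer neurons, stood at 75.1, 210.3, 298 and 270.3 against 4848, 4365, 4267 and 4666 (limma log2 fold change -4.58, SE 0.36, adjusted p = 6.2e-06), and Neurod2 at 33.0, 36.6, 107 and 73.1 against 1739, 1779, 1929 and 1893 (limma log2 fold change -5.02, SE 0.32, adjusted p = 1.7e-06). Both were lowest in striatum replicate 5, and no striatum library came near the cortex range. Mef2c, a factor that limits synapse number, differed with little spread, at 4293, 4224, 4450.1 and 4044 against 22979.7, 21834, 25304 and 20816 (limma log2 fold change -2.42, SE 0.07, adjusted p = 2.6e-08). Satb1 (-2.78), Fezf2, which specifies subcortical projection neurons (-3.93), Nfix (-1.61) and Zbtb18 (-1.49) were lower by amounts from 2.81-fold to 15.1-fold. The 4 members higher in striatum were Pou3f1, Nfia, Lmo3 and Tle4 (0.21 to 0.92), named after their values were seen.

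Upper layer markers (layers 2 to 4) were mostly lower in striatum, with 12 of 15 lower and 2 higher (median -1.19). Mef2c, Cux1, Cux2, Rorb and Lmo4 are in this list and in the list of cortical factors. Stard8, a GTPase-activating protein, had almost no spread in striatum, at 275, 289, 284 and 282 against 1349, 1214, 1592 and 1257 (limma log2 fold change -2.25, SE 0.09, adjusted p = 1.5e-07). Lamp5 (1778 ± 318 against 5829.6 ± 806, -1.72), Lmo4 (2205 ± 364 against 5537 ± 498, -1.34) and Cux2 (909 ± 326 against 4288 ± 552, -2.29) were lower too. The 2 members higher in striatum were Calb1, the calcium-binding protein calbindin that medium spiny neurons also hold (1.06), and Cdh13, a cadherin without a transmembrane domain (3051 ± 128 against 1338 ± 106, 1.19).

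Deep layer markers (layers 5 and 6) divided evenly: 8 of 23 were higher in striatum and 6 lower (median 0.14). Without striatum replicates 5 and 8 together 9 were higher and 9 lower. The median was 0.08 without striatum replicate 5, 0.07 without striatum replicate 8 and 0.08 without cortex replicate 7. Rprm (277 ± 82.9 against 1090.4 ± 135, -2.02) and Cplx3, a complexin of subplate-derived neurons (183 ± 7.82 against 471 ± 96.1, -1.33), were lower along with Fezf2 and Tbr1. Pcp4, a calmodulin-binding peptide (6885, 3706, 4487 and 5526 against 1343, 957, 778 and 1375, 2.21), and Bcl11b, also called Ctip2 and known in both deep layer and medium spiny neurons (11214, 8223, 9820.0 and 5415 against 2258, 1871, 1453 and 2589, 2.07), were higher. Genes known as deep layer markers within cortex thus lay on either side of this contrast, as did all genes tested (25.2% higher and 25.8% lower). Whether the upper and deep layer lists differ from each other was not tested.

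To show the regulatory sequence of genes that stood at opposite ends of the comparison, the bases before the start site were taken from RefSeq (GRCm38.p6) for receptors and factors of striatum (Drd1, Drd2, Isl1) and factors of cortex (Neurod6, Neurod2), and for Rarb only the letters of the retinoic acid response element. The 250 bases before the start were searched on both strands for that element (GGTTCA and AGTTCA in the same direction with 5 bases between them), the cyclic AMP response element core TGACG, and the E-boxes CAGATG and CAGCTG, the kind of site that NEUROD factors bind. Capitals mark every match (the core on the other strand reads CGTCA), no match overlaps another, and bases that GENCODE M21 places in an exon are left out for the genes other than Rarb.
Drd1 (chr13:54055706-54055908, minus strand): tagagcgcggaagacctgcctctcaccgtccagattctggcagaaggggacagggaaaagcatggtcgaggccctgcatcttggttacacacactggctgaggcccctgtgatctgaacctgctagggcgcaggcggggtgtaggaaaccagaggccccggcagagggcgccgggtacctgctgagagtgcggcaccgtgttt
Drd2 (chr9:49340153-49340402, plus strand): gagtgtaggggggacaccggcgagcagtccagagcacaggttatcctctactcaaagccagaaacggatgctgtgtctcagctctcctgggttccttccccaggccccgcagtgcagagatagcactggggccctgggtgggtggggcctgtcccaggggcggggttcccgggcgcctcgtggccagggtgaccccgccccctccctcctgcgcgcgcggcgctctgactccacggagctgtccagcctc
Isl1 (chr13:116309690-116309938, minus strand): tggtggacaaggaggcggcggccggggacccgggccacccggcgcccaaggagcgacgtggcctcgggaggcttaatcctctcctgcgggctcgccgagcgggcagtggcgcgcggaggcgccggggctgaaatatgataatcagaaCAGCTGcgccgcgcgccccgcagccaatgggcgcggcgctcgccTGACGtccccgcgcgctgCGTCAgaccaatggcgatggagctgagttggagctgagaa
Neurod6 (chr6:55681264-55681513, minus strand): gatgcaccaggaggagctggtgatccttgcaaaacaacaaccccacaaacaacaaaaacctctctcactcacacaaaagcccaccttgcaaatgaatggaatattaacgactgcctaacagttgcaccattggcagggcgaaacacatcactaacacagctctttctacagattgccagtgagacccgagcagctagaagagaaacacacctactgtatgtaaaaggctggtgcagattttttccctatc
Neurod2 (chr11:98329649-98329895, minus strand): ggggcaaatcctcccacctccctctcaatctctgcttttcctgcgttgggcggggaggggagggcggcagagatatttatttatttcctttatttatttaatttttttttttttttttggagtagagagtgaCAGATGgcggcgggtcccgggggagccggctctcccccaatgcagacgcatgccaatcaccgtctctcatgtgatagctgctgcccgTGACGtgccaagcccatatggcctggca
Rarb, response element with 6 bases on each side (chr14:16575507-16575535, minus strand): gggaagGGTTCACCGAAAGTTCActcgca

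The match in Rarb lay 53 to 37 bases before the start of a downstream transcript of the gene, in a window that GENCODE M21 places inside an exon of another transcript. The letters searched are rare: 2 of 32851 windows in the RefSeq table held them (0.00609%), and Rarb was the only 1 among 11794 tested genes with a window. Only these fixed letters were searched for the element, and Rarb was picked to show them. The match in Rarb and its rarity are therefore no independent result. Isl1 held the core TGACG at 2 places and the E-box CAGCTG at 1, and Neurod2 held TGACG and CAGATG once each. The windows of Drd1, Drd2 and Neurod6 held none of these letters. TGACG was in 17.8% of all windows, in 25.9% of those of tested genes, in 14.3% of the 287 windows of genes at least 4-fold higher in striatum and in 17.2% of the 221 windows of genes at least 4-fold lower. CAGATG was in 14.4%, 10.4%, 14.6% and 14% of these sets, and CAGCTG in 13%, 12.3%, 15.3% and 18.1%. The CG dinucleotide was found a median of 15 times in the windows of tested genes, 8 times in those of the genes at least 4-fold higher and 7 times in those of the genes at least 4-fold lower. These are counts of letters in a fixed window, and no test was made of them.

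Genes of glutamatergic transmission and dendritic spines were lower in striatum for 16 of 25 members and higher for 4 (median -1.20). Slc17a7, the vesicular glutamate transporter of cortical neurons, stood at 1275, 1308, 2379 and 3705 in striatum and 33759, 38849, 32226 and 32868 in cortex (limma log2 fold change -4.13, SE 0.29, adjusted p = 3.6e-06). Within striatum its value was highest in replicates 7 and 8. Slc30a3, which loads zinc into glutamate vesicles, followed the same order (33.0, 54.9, 84.1 and 142 against 2263, 2596, 2762 and 2125, -5.13). The vesicular transporters of other neurons went the other way: Slc17a6 (1.64), the transporter of thalamic and other subcortical neurons, and Slc17a8 (1.82), found in cholinergic interneurons, were higher in striatum and are named after their values were seen. Of the neuronal pentraxins, which cluster glutamate receptors, Nptx1 stood at 1450.4 ± 454 against 11691 ± 1241 (-3.07), Nptx2 at 684 ± 61.2 against 2059.7 ± 259.9 (-1.58) and the receptor Nptxr at 3207 ± 769 against 20268 ± 3040.0 (-2.68). Among scaffolds of the postsynaptic density Shank1 (-1.96) and Shank2 (-1.20) were lower and Shank3 was higher (0.29, limma adjusted p = 0.048), also named after their values were seen. The call of Shank3 was close to the threshold and was not checked under other settings. Sv2b, a vesicle protein, was lower at 4011, 4984, 4809 and 4146 against 15615, 16938, 15279.7 and 15851 (-1.83), as were the abundant genes Mical2, an actin oxidase (-2.91), and Miat, a long noncoding RNA (-3.10).

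Immediate early genes, which follow neuronal activity within minutes to hours, were lower in striatum for 20 of 30 members and higher for 1, the kinase Sik1 (0.76) (median -1.03). Ptgs2, the inducible cyclooxygenase, stood at 79.6, 61.0, 58.3 and 41.3 in striatum and 415, 588, 872 and 642 in cortex (limma log2 fold change -3.35, SE 0.24, adjusted p = 3.7e-06). Bdnf, the brain-derived neurotrophic factor, stood at 23.9, 101, 127 and 156 against 839, 682, 899 and 793 (limma log2 fold change -3.25, SE 0.48, adjusted p = 3.2e-04), and without striatum replicate 5, its lowest library, the log2 fold change was -2.66. Ier5 (-1.39), Klf10 (-1.18) and Dusp6, a phosphatase of ERK kinases (-1.01), were lower. Fos (-1.49), Arc (-1.60), Npas4 (-1.89) and Egr1 (-1.05) were lower as well, while Junb (-0.69) and Jun (-0.22) were not called. These 6 textbook members and Sik1 were named after their values were seen. The summed level of the list was 22687 to 32769 in striatum and 40693 to 65227 in cortex, with the highest value in cortex replicate 7.

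Ionotropic glutamate receptors differed by modest amounts. Of the 7 NMDA receptor subunits 3 were lower in striatum: the obligatory subunit Grin1 (9706 ± 531 against 13206 ± 747, -0.44), Grin2b (12125 ± 1164 against 15341 ± 749, -0.34) and, by most, Grin2a (3865, 4198, 4289 and 4227 against 10077, 10147, 9184 and 10317, limma log2 fold change -1.26, SE 0.06, adjusted p = 3.1e-07). Grin3b was called higher at a low level (14.1 ± 2.1 against 7.31 ± 2.36, 0.89), overlaps Tmem259 on the opposite strand, and lost its call without striatum replicate 5 or 8 or both, without cortex replicate 6 or 8, without the filter and with DESeq2. The ratio of Grin2a to the other subunits was not tested. Of the 4 AMPA receptor subunits Gria1 was higher (11398 ± 1403 against 8303 ± 307, 0.45), Gria3 lower (5098 ± 181 against 8130.3 ± 211, -0.67) and Gria4 not called. Gria2, which makes the channel impermeable to calcium, was called lower by little (-0.26, limma adjusted p = 0.035) and lost its call without any 1 of the 4 cortex libraries, without striatum replicate 6 and in the fit of all 15 libraries. Of the kainate and delta receptors Grik2 was higher at 2665, 2655, 2656 and 2092 against 1254, 1216, 1069 and 1359 (1.04), as was Grid1 (0.38), while Grik4 was lower (-0.74). Grik5 was called lower (-0.25, limma adjusted p = 0.033), but its groups overlapped and the call was lost without striatum replicate 6 or 8, cortex replicate 5, 6 or 8, or striatum replicates 5 and 8 together, and in the fit of all 15 libraries.

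Metabotropic glutamate receptors spread more widely. Grm2, a presynaptic receptor of group II, was 6.68-fold lower in striatum (73.9, 178, 158 and 303 against 1210.1, 1214, 1311 and 1029.7, limma log2 fold change -2.90, SE 0.33, adjusted p = 7.1e-05). Grm5 (10542 ± 1948 against 5550.5 ± 76.9, 0.90), a receptor of group I that couples to calcium release, and Grm4 of group III (1869 ± 54.0 against 742 ± 189, 1.36) were higher. Grm5 was lower in striatum replicate 8 than in the other 3 libraries. Without striatum replicates 5 and 8 together 5 of the 7 receptors were called higher instead of 3. Grm8, also of group III, was lower (-0.69).

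GABA-A receptor subunits went both ways, with 7 of 14 higher in striatum and 4 lower (median 0.29). Among the alpha subunits Gabra4 (7263 ± 703 against 3833 ± 62.0, 0.92) and Gabra2 (6102 ± 408 against 4278 ± 555, 0.52) were higher, and Gabra3 (2465 ± 619.7 against 4333 ± 67.0, -0.85) and Gabra5 (-0.72) were lower. Gabra4 overlaps Gabrb1 on the opposite strand. The gamma subunits Gabrg1 (2019.6 ± 543 against 826 ± 118, 1.25) and Gabrg3 (0.70) were higher. Gabrq, the theta subunit, stood at 42.1, 438, 230.0 and 472 in striatum and 12.2, 14.3, 6.40 and 13 in cortex (limma log2 fold change 4.15, SE 0.66, adjusted p = 5.7e-04). Its striatum value was far lowest in replicate 5, and Gabre, the epsilon subunit, was higher as well (3.82). Gabra5, Gabrg3 and Gabre were named after their values were seen.

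**Figure D2:**
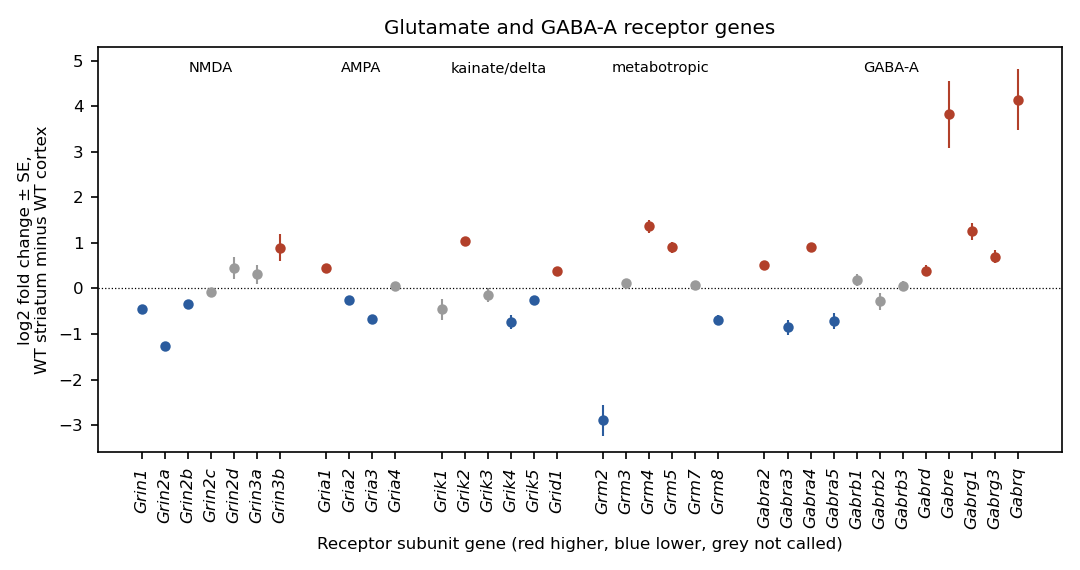
Log2 fold change (striatum minus cortex, points) with its SE (bars) for tested subunits of NMDA, AMPA, kainate and delta, metabotropic glutamate and GABA-A receptors, in red where called higher, blue where called lower and grey where not called. Most of these subunits lie within 1.5 of 0, and Grm2 (-2.90), Gabre (3.82) and Gabrq (4.15) lie outside.

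Receptors for amines, acetylcholine, opioids, cannabinoids and purines were called in 39 of 48 cases, 22 higher in striatum and 17 lower. Serotonin receptors went both ways: Htr2c stood at 3259.6, 2800.3, 2534 and 2695 against 552, 527, 408 and 506 (limma log2 fold change 2.50, SE 0.11, adjusted p = 2.1e-07), Htr1b at 2230.1 ± 251 against 310.4 ± 82.3 (2.87) and Htr1d at 309 ± 62.5 against 22 ± 8.82 (3.81), whereas Htr3a, a serotonin-gated channel of cortical interneurons, was lower (44.7 ± 2.95 against 164 ± 23.3, -1.85). Htr1b shares its locus with a noncoding RNA on the opposite strand. Among acetylcholine receptors Chrm3 was 4.5-fold lower (406, 512, 472 and 539 against 2198, 2160.3, 2259 and 2060.4, limma log2 fold change -2.17, SE 0.09, adjusted p = 1.7e-07), and Chrnb3 was lower at a low level (7.01 ± 1.83 against 79.5 ± 8.99, -3.35). Chrm4, the inhibitory muscarinic receptor of direct pathway neurons, was higher (0.64) and Chrm1 lower (-0.92). Adra1d, an adrenergic receptor of smooth muscle and forebrain, was lower at 179.9 ± 17.8 against 859.9 ± 91.2 (-2.25). The mu opioid receptor Oprm1 (1.53) and the kappa receptor Oprk1 (2.1) were higher and the delta receptor Oprd1 lower (-0.38). The dopamine receptors Drd3 (4.06) and Drd5 (1.33) were higher with Drd1 and Drd2. The opioid, muscarinic M1 and M4 and D3 and D5 receptors were named after their values were seen.

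Neuropeptide precursors showed some of the largest differences in both directions, with 12 of 31 higher in striatum and 9 lower (median 0.57). The number higher was 16 without striatum replicate 5 (median 0.81) and 11 without striatum replicate 8 (median 0.40). Among the members higher, Avp, Gal, Hcrt and Oxt passed the filter only through striatum, so that their direction was fixed by it. Vip, the vasoactive intestinal peptide of a class of cortical interneurons, stood at 42.1, 33.5, 65.1 and 53.0 in striatum and 1288, 1091, 1503 and 1119.9 in cortex (limma log2 fold change -4.69, SE 0.19, adjusted p = 1.9e-07). Cck, the cholecystokinin precursor, stood at 492, 471, 671 and 1419 against 5714, 6537, 6027 and 5073 (limma log2 fold change -3.08, SE 0.29, adjusted p = 2.2e-05) and was highest within striatum in replicate 8. Chgb, a granin of secretory vesicles, was lower at 4834 ± 252 against 10633 ± 351 (-1.14). On the striatal side, next to Penk, Pdyn and Tac1, stood Trh, the thyrotropin-releasing hormone (205, 342, 195 and 340.2 against 16, 19.97, 11 and 26.1, 3.83). Hcrt, the orexin precursor (20.5, 141, 96.5 and 1152 against 1.88, 1.90, 0 and 1.0), and Pmch, the precursor of melanin-concentrating hormone (35.3, 993, 824 and 7575 against 6.59, 5.70, 5.48 and 25.1), are made by neurons of the lateral hypothalamus. Both spanned widely between striatum libraries, from replicate 5 as the lowest to replicate 8 as the highest. Their log2 fold changes were 6.07 and 6.16, or 5.04 and 5.01 without replicate 8, and both calls were lost with voom. Further hypothalamic precursors were higher: vasopressin (Avp) stood at 25, 602, 127 and 148 against 7.53, 1.90, 2.74 and 5.01 (4.76) and oxytocin (Oxt) at 4.55, 125, 48.2 and 104 against 2.83, 0.951, 0.914 and 0 (4.49). Galanin (Gal, 4.59) and neurotensin (Nts, 3.95) were higher and gastrin-releasing peptide (Grp, -4.26) and PACAP (Adcyap1, -2.52) lower. These 6 precursors were named after their values were seen.

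GABA neuron and interneuron markers were higher in striatum for 10 of 22 members, or 12 without striatum replicate 5, and lower for 7 (median 0.45). The enzymes that make GABA, Gad1 (24876 ± 2047 against 10506 ± 657, 1.24) and Gad2 (16570.0, 24100.3, 20123 and 17506 against 5204, 5080.3, 4785 and 5486, 1.92), and the vesicular GABA transporter Slc32a1 (6719 ± 485 against 2107 ± 136, 1.67) were 2.37-, 3.81- and 3.19-fold higher. Nkx2-1, a homeobox factor of pallidal and striatal interneurons, stood at 200.2, 228, 218 and 206 against 18.8, 6.66, 6.40 and 13 (4.25). Parvalbumin (Pvalb, 0.64) and nitric oxide synthase (Nos1, 0.98) were higher, Vip, Htr3a and Cort (-3.95) were lower, and somatostatin (Sst, -0.04, limma adjusted p = 0.77) was not called. Pvalb, Nos1, Cort and Sst were named after their values were seen.

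Genes of cholinergic neurons were higher in striatum in 12 of 12 cases, with the highest median of all 38 lists (4.74). Isl1 is also counted as a direct pathway marker and Gbx2 as a marker of thalamus, septum and pallidum, so these lists are not separate. Chat, the enzyme that makes acetylcholine, stood at 712, 677, 726 and 536 in striatum and 47.1, 19, 16.5 and 69.2 in cortex (limma log2 fold change 4.32, SE 0.40, adjusted p = 1.8e-05). Slc5a7, the choline transporter, stood at 1750.4, 1953, 1998 and 1421 against 84.8, 35.2, 35.6 and 99.3 (limma log2 fold change 4.93, SE 0.32, adjusted p = 2.1e-06), and Slc18a3, the vesicular acetylcholine transporter, at 331 ± 72.2 against 12.9 ± 2.81 (4.57). Because Slc18a3 sits inside Chat, in the same orientation, how their reads divide is uncertain. Lhx8, the LIM homeobox factor of forebrain cholinergic neurons, stood at 297, 373, 285 and 291 against 12.2, 0.951, 0 and 7.02 (6.36), the neurotrophin receptor Ngfr at 250.2, 406, 421 and 424 against 29.2, 20.9, 37.5 and 34.1 (3.58), and the transporter Slc10a4 at 471 ± 67.0 against 15.5 ± 15.7 (5.66). The summed list varied less between striatum libraries than the medium spiny neuron lists did, from 8595 to 10586, against 1350.1 to 1872 in cortex. Ecel1, an endopeptidase-like protein (1776 ± 267 against 82.8 ± 24.1, 4.45), and Gbx2, a homeobox factor also known in thalamus (39.8, 67.1, 46.0 and 155 against 1.88, 1.90, 0 and 2.01, 4.91), completed the members named, and Gbx2 overlaps a noncoding RNA on the opposite strand.

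Myelin and oligodendrocyte genes were higher in striatum for 24 of 25 members and none was lower (median 1.39). Ugt8a, which makes galactosylceramide of myelin, stood at 4013, 4239, 3794 and 3691 in striatum and 1578, 1624, 973 and 1553 in cortex (limma log2 fold change 1.49, SE 0.15, adjusted p = 2.8e-05). Cnp (14092 ± 1293 against 5930.2 ± 1322, 1.28), Ermn (5611 ± 368 against 2029.8 ± 593, 1.52), Tspan2 (7450.2 ± 905 against 2927 ± 717, 1.37), Gpr37 (3815 ± 120.3 against 1624 ± 336, 1.26) and the iron carrier Trf (948 ± 175 against 315 ± 75.9, 1.61) differed by 2.35- to 3.01-fold. The members lay close together, from 0.83 to 1.61. In cortex the summed list was lowest in replicate 7 (126601, 119272, 72663 and 146864), the library that was lowest for Drd2 and Adora2a too. Cnp overlaps Dnajc7 on the opposite strand. The member not called was Enpp2 (1.35, limma adjusted p = 0.057), which the choroid plexus also expresses.

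Oligodendrocyte precursor markers were higher for 10 of 12 members, or 8 without striatum replicate 8 (median 0.73). Olig2 (1129, 1144, 1232 and 1141 against 703, 691, 644 and 652, 0.79) and Olig1 (4369.5 ± 159.6 against 2378 ± 203, 0.88), the factors of the whole lineage, varied little, and Lhfpl3 (1924 ± 343 against 567 ± 54.8, 1.75), Enpp6 (1.51) and Bcas1 (1.3) differed by more. Microglia markers were higher for 14 of 20 members by small amounts (median 0.34): the protease Ctss stood at 2496, 2706, 2404 and 2455 against 1558, 1648, 1799.8 and 1605 (0.61), Ly86 at 309 ± 24.4 against 196 ± 10.1 (0.65), and the complement genes C1qa, C1qb and C1qc at 0.45, 0.47 and 0.41. Astrocyte markers were higher for 7 of 20 members and lower for 1, or 3 without striatum replicate 8 and 2 without striatum replicate 7 (median 0.19), led by the bicarbonate transporter Slc4a4 (11425 ± 761 against 5649 ± 584, 1.02), and Aqp4 (0.54) and Gja1 (0.39) overlapped between the groups. Endothelial and pericyte markers were higher for 3 of 20 (median 0.20), below the 25.2% of all genes: Itm2a (0.43), Pltp (0.61), which overlaps Ctsa, and Slco1a4 (0.41), whose groups overlapped. Without cortex replicate 7 there were 7 (median 0.34) and without striatum replicate 7 there were 6. The median was 0.12 without striatum replicate 5 and 0.08 without striatum replicates 5 and 8 together. The call of Slco1a4 was lost without those 2 libraries together and without cortex replicate 6.

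**Figure D3:**
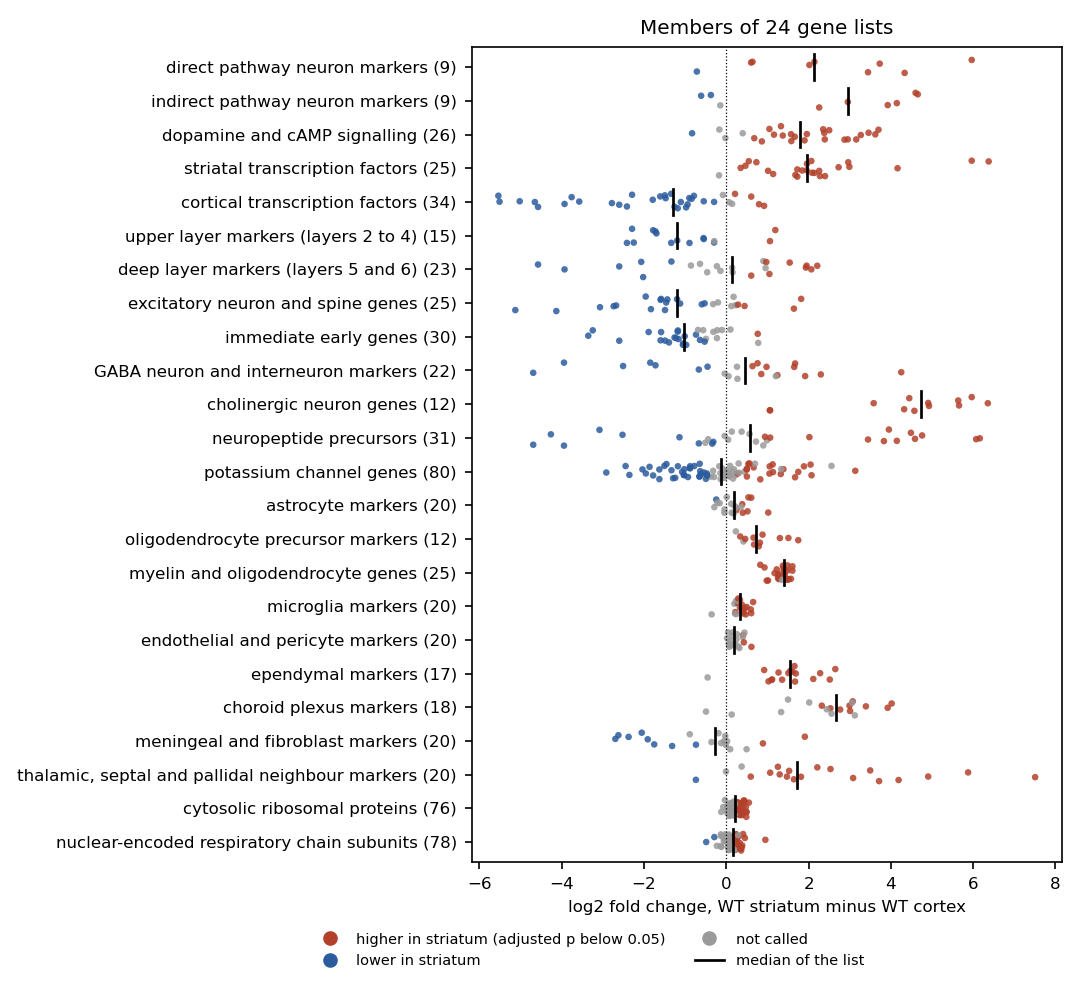
Log2 fold changes (striatum minus cortex) of the tested members of 24 gene lists, 1 point per gene, red where called higher, blue where called lower and grey where not called, with a black bar at the median and the number of genes in brackets. Cholinergic genes have the highest median (4.74) and cortical transcription factors a median of -1.30, while ribosomal and respiratory chain genes lie near 0.

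Markers of tissues that border the striatum were also higher there, and they set single libraries apart. Choroid plexus markers, the secretory epithelium within the ventricles, were higher for 9 of 18 members (median 2.66), but the summed level was 155701 in striatum replicate 5 against 2189, 5654 and 7073 in replicates 6, 7 and 8. The cortex libraries held 954 to 2487. Prlr, the prolactin receptor, stood at 2431, 450.1, 341 and 661 against 45.2, 70.4, 30.2 and 34.1 (4.02), and Clic6, an intracellular chloride channel, at 3645, 454, 632 and 508 against 64.0, 73.2, 33.8 and 59.2 (3.92). Without striatum replicate 5 these log2 fold changes were 3.42 and 3.22, and that of the homeobox factor Otx2 was 2.66 in place of 3.39. Tmem72 (3.07), F5 (2.99) and Sostdc1 (3.01) lost their calls under voom. Tmem72 also lost its call without cortex replicate 5, 7 or 8, and F5 without cortex replicate 7 or 8, without striatum replicates 5 and 8 together and with sample weights. Ttr, the transthyretin gene that dominates this epithelium, was not called (130620.0, 682, 3604 and 4723 against 840.0, 1680.1, 428 and 433, 3.12, limma adjusted p = 0.066) and was named after its values were seen. In striatum replicate 5 Ttr alone held most of the summed level. Without striatum replicate 5 the list had 10 members higher and 2 lower (median 1.52), and without striatum replicates 5 and 8 it had 7 higher and 2 lower (median 1.22). On leaving out 1 library in turn the number higher ran from 4, without cortex replicate 7 or 8, to 13, without striatum replicate 6, and it was 5 without cortex replicate 5.

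Ependymal genes, which build the motile cilia of the ventricle wall, were higher for 16 of 17 members (median 1.56) and set replicate 5 apart by less. Foxj1, the master factor of motile cilia, stood at 548, 309.9, 292 and 217 against 114, 164, 64.9 and 132 (1.51), Ak7 at 202, 156, 157 and 62.5 against 20.7, 32.3, 8.23 and 44.1 (2.52) and Rarres2 at 193 ± 38.4 against 64.7 ± 11.5 (1.56). The summed list was 2532, 1694, 1824 and 1051 in striatum and 516 to 969.8 in cortex, and 15 members were called higher without striatum replicate 5. Replicate 8, the highest for markers of neighbouring regions, was the lowest here. Rarres2 overlaps Lrrc61 on the opposite strand. Meningeal and fibroblast markers were the non-neuronal group with more members lower in striatum, 8 of 20 against 2 higher (median -0.28): Slc22a6, an organic anion transporter (34.1, 25.4, 24.7 and 22.3 against 144, 131, 269.7 and 76.2, -2.37), Fmod, fibromodulin (98.1 ± 24 against 351 ± 164, -1.75), and Cemip, which degrades hyaluronan (169 ± 46.3 against 689.7 ± 64.7, -2.06), were lower. Slc22a6 and Fmod were highest in cortex replicate 7, whose values of Drd2 and of myelin genes were the lowest in cortex. The median of the list was -0.41 without striatum replicate 5, whose summed level of 10551 was the highest of the striatum libraries, and -0.16 without cortex replicate 7. Without striatum replicates 5 and 8 together it was -0.53, with 10 members lower. Nnat, counted in this list but also a neuronal gene, was higher (1.91).

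Markers of thalamus, septum and pallidum were higher for 17 of 20 members (median 1.73), and striatum replicate 8 stood above the others. Shox2, a homeobox factor of thalamus that passed the filter only through striatum, stood at 653, 748, 491 and 1643 in striatum and 1.88, 2.85, 3.66 and 6.02 in cortex (7.51). Prkcd, a protein kinase C of thalamic and extended amygdala neurons, stood at 4061, 3145, 3249 and 10285 against 231, 226, 243 and 301 (4.19), and Tcf7l2, a factor of thalamic neurons, at 968, 1279, 916 and 2796 against 98.9, 89.4, 103 and 113 (3.71). The summed list was 24578, 33004, 28488 and 54752, so that replicate 8 was 1.91 times the mean of the other 3, while the indirect pathway list in that library was 0.595 times the mean of the others. The part of such tissue in the other results was not tested. Sparc, a member of the list (1.82), alone held 10308 to 20438 of the sum in striatum and 3526 to 5152 in cortex. Its level in striatum replicate 8 was 1.48 times the mean of the other striatum libraries. Without striatum replicates 5 and 8 the median of the list was 1.70. Shox2 overlaps Rsrc1 on the opposite strand. Dlk1 (259, 1234, 992 and 1510.3 against 17, 29.5, 8.23 and 7.02, 5.88) and Gpr101 (272, 1344, 798 and 1023 against 17, 24.7, 5.48 and 10.03, 5.78), both abundant in hypothalamus and basal forebrain, were lowest in striatum replicate 5, as was Calcr, the calcitonin receptor (9.10, 83.3, 74.0 and 138 in striatum, and 1 read in the 4 cortex libraries together).

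**Figure D4:**
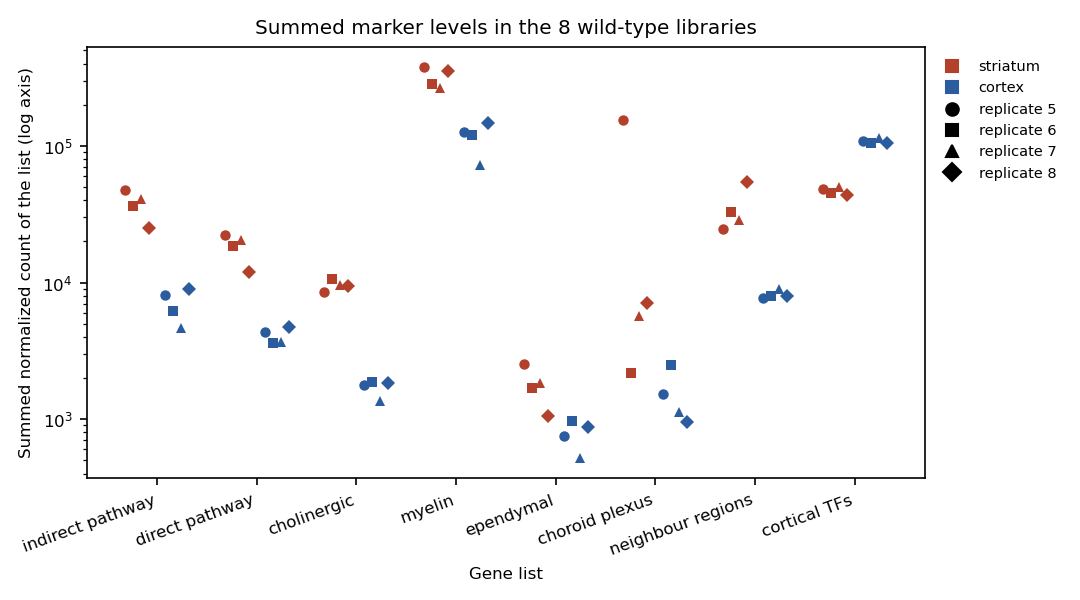
Summed normalized counts (log axis) of 8 gene lists in the 4 striatum (red) and 4 cortex (blue) WT libraries, with a symbol per replicate number. Striatum replicate 5 stands at 155701 for choroid plexus markers and striatum replicate 8 at 54752 for markers of neighbouring regions, while cholinergic genes and cortical transcription factors vary little within a tissue.

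Several of the largest differences fell in genes outside the lists. Igfn1, an immunoglobulin-like and fibronectin domain protein known from muscle, stood at 55.7, 4.06, 6.73 and 4.24 in striatum and 1248, 1201, 1616 and 1079 in cortex (limma log2 fold change -6.94, SE 0.66, adjusted p = 2.1e-05), and without striatum replicate 5 its log2 fold change was -7.75. Ovol2, a zinc finger factor of epithelia, stood at 1.14, 2.03, 4.49 and 2.12 against 188, 174, 210.2 and 226 (-5.94), and Dkkl1, a dickkopf-like protein, at 9.10, 12.2, 15.7 and 6.36 against 532, 512, 505 and 450.2 (limma log2 fold change -5.46, SE 0.23, adjusted p = 2.1e-07). All 3 stood below 16 in every striatum library except Igfn1 in replicate 5. Trbc2, a constant segment of the T cell receptor beta chain, stood at 4.55, 3.05, 5.61 and 1.06 against 259.9, 261, 193 and 209.5 (-5.78), Krt80, a keratin, at 5.69, 0, 6.73 and 0 against 122, 146, 63.1 and 181 (-5.49), and Serpinb8, a protease inhibitor, at 15.8 ± 12.3 against 554 ± 73.8 (-5.34). Adam33 (-5.28), Mylk3 (-5.40) and Ntn5, a netrin (-6.10), were of the same order. Ntn5 overlaps Sec1 on the opposite strand. On the striatal side Cckar, the cholecystokinin A receptor, stood at 89.9, 109.7, 96.5 and 129 in striatum with 1 read in the 4 cortex libraries together, and Frem3, a matrix protein, at 113, 54.9, 151 and 202 against 1.88, 0.951, 2.74 and 0 (5.79).

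Genes that handle serine, glycine and neutral amino acids, the substrates of ASCT1, were called in 10 of 23 cases, beside 51.0% of all genes, with 6 higher in striatum and 4 lower. Their median lay near 0 (-0.03, and -0.01 without striatum replicate 5 or -0.06 without cortex replicate 6). Slc6a9, the glycine transporter GlyT1, stood at 1973, 2543, 2175 and 2751 in striatum and 962, 1046, 834 and 1108 in cortex (limma log2 fold change 1.25, SE 0.12, adjusted p = 2.0e-05), and overlaps B4galt2 on the opposite strand. Phgdh and Psat1, the first and second enzymes of serine synthesis, were higher at 1952 ± 131 against 1209.8 ± 66.6 (0.69) and 4628 ± 376 against 3099 ± 180.4 (0.58), and Gcsh of the glycine cleavage system by little (0.30). Slc7a8, the LAT2 transporter, was lower at 1307, 1212, 1304 and 1177 against 1868, 2133, 1949.7 and 1795 (-0.63). Sds, a serine dehydratase, was higher at a low level (14.9 ± 2.76 against 2.64 ± 1.02, 2.15) and overlaps Plbd2.

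Neurotrophic factors and their receptors differed in both directions, 8 of 19 higher in striatum and 5 lower. Their median lay near 0 (0.01) and ran from -0.05 without striatum replicate 6 to 0.13 without striatum replicate 7. The receptor Ret (550.5, 749.9, 612 and 1011 against 110.2, 97.0, 129.8 and 154, limma log2 fold change 2.55, SE 0.20, adjusted p = 6.4e-06) and its co-receptor Gfra1, which binds GDNF (1953 ± 224 against 1002 ± 95.9, 0.96), were higher, whereas Gfra2, the co-receptor of neurturin, was lower (246, 542, 476 and 772 against 2471, 2864, 2532 and 2410.3, -2.44). Nrg3, a neuregulin, was lower (610.1 ± 109 against 1370.3 ± 72.8, -1.18), and Erbb3, a neuregulin receptor of the oligodendrocyte lineage, was higher (654 ± 28.5 against 309 ± 56.2, 1.1). Of the ligands, Gdnf was higher at 123, 83.3, 86.4 and 95.4 against 12.2, 5.71, 0 and 17 (3.94), named after its values were seen, and Bdnf lower.

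Potassium channel genes were called in 54 of 80 cases, 34 lower in striatum and 20 higher (median -0.14). Kcnh7, an ether-a-go-go related channel, stood at 1099, 1383, 1241 and 1362 against 6405, 6030.2, 6182 and 7396 (limma log2 fold change -2.36, SE 0.09, adjusted p = 1.3e-07), and the sodium-activated Kcnt2 at 378 ± 55.9 against 1456 ± 64.4 (-1.96). Kcna4, a channel of A-type currents (2032, 1863, 1881 and 1479.5 against 625, 551, 582 and 508, 1.67), and Kcnn3, a calcium-activated channel (1586 ± 118 against 606 ± 52.7, 1.39), were higher, while Kcnf1 (-1.07) and Kcnmb4 (-1.29) were lower. Without striatum replicate 5 the median of the channel genes was -0.09. Of 31 cadherins and protocadherins 8 were higher and 10 lower, near the 25.2% higher and 25.8% lower of all genes. Among them Cdh8 (1.01) and Pcdh17 (1.04) were higher and Cdh12 (-2.0), Pcdh7 (-0.84) and Pcdh1 (-0.76) lower. The counts of ephrins, Eph receptors, semaphorins and plexins below are read beside the same shares. Of 20 ephrins and Eph receptors 3 were higher and 7 lower: Efnb3 stood at 5229.5, 5146, 5266 and 5249 against 1980.4, 2007, 1221 and 2117 (1.54) and Ephb1 was higher (0.70), while Ephb3 (-1.76), Ephb6 (-1.34), Epha10 (-1.64) and the ligand Efna5 (-1.47) were lower. Without striatum replicates 5 and 8 together 5 were called higher. Of 29 semaphorins and plexins 9 were higher, such as Sema6a (1.01), Sema6d (0.71) and Sema3e (0.89), and 9 lower, such as Sema6c (-1.01), Sema4f (-0.69) and Sema7a (-0.71).

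Cytosolic ribosomal protein genes were higher in striatum for 40 of 76 members and none was lower (median 0.22). The differences were small: Rps12 stood at 3296, 2993, 3170.1 and 3145 against 2222, 2261, 2386 and 2191 (0.48), and Rps26, Rpl3, Rpl30, Rpl31 and Rpl35a lay between 0.40 and 0.49. Without cortex replicate 7, the cortex library with the highest sum, 52 were called, and without striatum replicates 5 and 8 33. Ribosomal protein genes have many processed copies in the genome, and how reads divide among these is uncertain. Nuclear-encoded subunits of the respiratory chain were higher for 31 of 78 members and lower for 2 (median 0.16), with Atp5g3 (0.35), Ndufb10 (0.36), Ndufs4 (0.41) and Uqcrb (0.45) among the higher. Without striatum replicates 5 and 8 19 were higher and 5 lower, and the median was 0.06.

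The KO libraries, which share no sample with the WT libraries, were used to ask whether the same contrast holds in a second set of samples. Slc1a4, the gene deleted in these mice, stood at 158 to 344 in KO striatum and 249 to 308 in KO cortex, against 1533 and 1624 on average in the WT tissues. In KO striatum (n = 3) against KO cortex (n = 4) limma called 5316 of the 16527 genes (32.2%), 2562 higher (15.5%) and 2754 lower (16.7%). KO striatum replicate 4 stood apart in the manner of WT striatum replicates 5 and 8, with sums of 12882 for indirect pathway markers, 74922 for markers of neighbouring regions and 96989.6 for choroid plexus markers, against 25503 to 31933, 23047 to 32877 and 3363 to 7491 in the other 2. Without it 6009 genes were called. Of the 8425 genes called in WT, 8331 had the same sign in KO (98.9%). Called in both with the same sign were 4799 genes, 57.0% of the WT calls and 90.3% of the KO calls, and none was called in opposite directions. Of the 755 genes called with at least a 4-fold difference in WT, 754 had the same sign in KO and 661 were called there. Across the 16527 genes, which are not independent replicates, the log2 fold changes of the genotypes correlated with Pearson's r = 0.93 and Spearman's rho = 0.89.

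The markers of both tissues kept their direction in KO. Log2 fold changes were 4.89 for Drd2 (limma adjusted p = 0.0031), 4.42 for Adora2a, 3.71 for Penk and 5.14 for Chat. The cortical factors Emx1 (-3.90 in KO, -5.51 in WT), Neurod6 (-2.52 and -4.65), Neurod2 (-2.76 and -5.02) and Slc17a7 (-2.48 and -4.13) were closer to 0 in KO. Of the 403 genes at least 4-fold higher in WT 292 had a smaller difference in KO (median 2.46 against 2.80), and of the 352 at least 4-fold lower 310 did (median -2.25 against -2.92). These genes were picked by their WT values, so that the comparison of sizes is no test. The summed cortical transcription factors stood at 51246, 43767 and 45446 in KO striatum replicates 2, 3 and 4 against 43608 to 49698 in WT striatum. In WT striatum Mef2c alone held 4044 to 4450 of this sum and Neurod2 33.0 to 107, so that the sum says little of the low factors. Fibcd1 was called higher in WT (1.02) and stood at -0.07 in KO, and its WT call was lost in the fit of all 15 libraries.

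**Figure D5:**
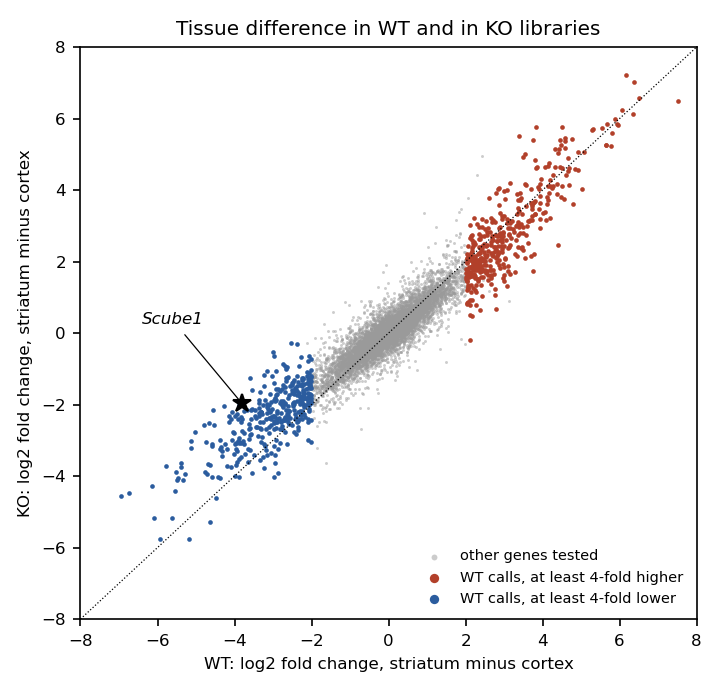
Log2 fold change of striatum against cortex in the 8 WT libraries (x axis) and in the 7 KO libraries (y axis) for the 16527 genes, with the 403 genes called at least 4-fold higher in WT in red, the 352 called at least 4-fold lower in blue, a dotted line of equal values and a star at Scube1. All of these 755 genes but 1 have the same sign in both genotypes, and Scube1 lies at -3.82 in WT and -1.96 in KO.

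A direct test of the difference between the contrasts, KO minus WT over all 15 libraries, called 1 gene (0.00605%), Scube1, a secreted and membrane-bound protein with EGF-like domains. In WT it stood at 139.9, 124, 167 and 171 in striatum and 2191, 2234, 2071 and 1968 in cortex (limma log2 fold change -3.82, SE 0.11, adjusted p = 2.6e-08). In KO it ranged from 440.2 to 725 in striatum and from 1965 to 2293 in cortex (-1.96). The difference was 1.86 on the log2 scale (limma adjusted p = 0.0018). The KO striatum libraries stood above the WT striatum libraries, while the cortex ranges overlapped. Neurod6, a marker of cortical neurons, ranged from 159.6 to 719 in KO striatum, above its WT striatum libraries, and its part in this result was not tested. At an unadjusted p below 0.05 there were 811 genes, edgeR also called 1, and limma with the replicate number as a block called none. Without KO striatum replicate 4, the library that stood apart, 8 genes were called, without WT striatum replicate 7 3, and without KO striatum replicate 2 or 3 2. The genes next in order of p, among them Nwd2 (-3.03 in WT, -1.20 in KO), Smoc2 (-4.56 and -2.15), Ptchd2 (-1.35 and -0.54) and Arhgef25 (-1.91 and -1.48), did not pass the test.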

How the data were processed

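Libraries of striatum and cortex were built from 800 ng of total RNA (NEBNext Ultra RNA kit) and read as 75 base single ends, per the labels' protocols. The build GRCm38, the aligner TopHat2 2.1.1, the counter HTSeq 0.6.0, the trimmer cutadapt 1.1 and DESeq2 1.12.4 stand in the submitters' processing notes beside FastQC 0.11.5, and the strand setting and annotation release are not given in the sources used here. The deposited table holds, for 26595 genes and 15 libraries, a signal whose steps show read counts divided by 1 size factor per library. Multiplying by these factors gave whole reads for 100% of values (tolerance 0.001), which were used for the count tests and for depth. Depth was 22990233 to 29342263 reads in the 8 WT libraries. Averaged over genes, replicates of a WT tissue differed by more than counting error (mean chi-square per gene 7.15 to 58.3 between pairs). This average does not hold for each gene, and values with little spread, such as those of Stard8 and Efnb3 in striatum, lay within counting error.

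Genes at 10 or more in at least 3 of the 8 WT libraries were tested with limma 3.58.1 (trend) in R 4.3.3 on log2(value + 1), with 6 residual degrees of freedom and Benjamini-Hochberg adjustment, using Python 3.11.15 and pandas 2.3.3 for summaries. The count tests on recovered reads, edgeR 4.0.16 and DESeq2 1.42.0, and voom were alternatives. The difference between genotypes was an interaction term over 15 libraries (11 residual degrees of freedom). The code was tested on simulated data. Gene positions are from GENCODE M21 (GRCm38), which held 26332 of the table's genes, and promoter windows are from RefSeq (GRCm38.p6), which held 185 of the 247 named genes. The named genes were the 4 markers, the largest changes (up to 15 genes in each direction, no overlap, mean of at least 50, no predicted genes), up to 6 called members of each of 38 lists with the smallest p, up to 6 abundant genes (mean of at least 5000) in each direction, 8 genes of the interaction, and Slc1a4. The members and lists were chosen with earlier results of these data known. Some list members are counted but not reported by name here.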

Additional observations from a re-analysis of the deposited data

Results flagged for a closer look

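Among 480 groups of 4 libraries, that is, 240 named genes in each WT tissue, 34 values lay far from the other 3 by Dixon's criterion at the 95% level. Chance gives about 1 in 20 groups. Most fell in striatum replicates 5 and 8 and in cortex replicate 7.

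In striatum replicate 5 these were choroid plexus genes: Prlr at 2431 (others 341 to 661), Clic6 at 3645, Otx2 at 613, Sostdc1 at 992, Tmem72 at 502 and F5 at 1953. Pltp at 3252, Dsp, a desmosome protein, at 172, and Igfn1 at 55.7 were high in the same library, and Ngfr at 250.2 was low. In striatum replicate 8 the hypothalamic precursors Pmch at 7575 and Hcrt at 1152 were high, with Prkcd at 10285 (others 3145 to 4061), Aldh1a1 at 2628, Ermn at 6162, Psat1 at 5189 and Efna5 at 476. The glutamate receptors Grm5 at 7623 and Grik2 at 2092 were low there.

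In cortex replicate 7 Zbtb18 was high at 11459.8. The values of Cplx3 at 327, Ugt8a at 973, Efnb3 at 1221, Sema4f at 1159, Dsp at 1.83 and Gbx2 at 0 were low. Single values elsewhere were Lhx8 at 373 in striatum replicate 6, Olig2 at 1232 and Ccdc129 at 3.37 in striatum replicate 7, Pdyn at 662 in cortex replicate 6, and Pmch at 25.1 and Rgs8 at 3231 in cortex replicate 8. Cckar and Calcr stood at 0.942 each in cortex replicate 5, which is 1 read, and at 0 in the other cortex libraries.

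Scube1 differed between the genotypes: its contrast of striatum against cortex was -3.82 in WT and -1.96 in KO, a difference of 1.86 on the log2 scale by the interaction term in limma.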

How the results depend on the processing

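The number of genes called in WT was 8425 and ran from 7249 to 9472 over all alternatives: 8509 with edgeR, 8644 with DESeq2, 8427 with voom, 8422 with TMM scaling, 9472 with sample weights, 7491 with a filter at 50, 8580 without a filter, 8139 without striatum replicates 5 and 8 together, and 7249 to 8422 on leaving out 1 library. At least 2-fold differences fell from 2370 to 1548 with the filter at 50, where fewer genes are tested. TMM scaling moved the median log2 fold change by -0.0056. Of 5662 alternative values of the 247 named genes none with a call changed sign, Slc1a4, which was not called, ran from -0.15 to 0.063, and 37 values of 10 genes lost the call: Pmch, Hcrt, Sostdc1, Tmem72, F5, Grin3b, Gria2, Grik5, Slco1a4 and Fibcd1. The cause was not tested. The number of genes whose contrast differed between WT and KO was 1 and became 0 with the replicate block; on leaving out 1 library it ran from 1 to 8. With the replicate number as a block 8310 genes were called in WT. Deviations of striatum and cortex libraries of the same number correlated at 0.11, 0.077, 0.00074 and 0.097. Striatum replicates 5, 6 and 8 correlated best with the cortex library of their own number and replicate 7 with cortex replicate 6 (0.044). Not every pair passed 0.1 and the labels name no shared animal, so the numbers were not used to pair the samples, and whether they mark shared animals is not settled. With the block the calls of Grin3b and Grik5 were lost. Counting error limits precision most for low genes such as Cckar and Calcr, which had 1 read in cortex. On leaving out 1 library the median of 16 of the 38 gene lists moved by over 1.5 times or changed sign, and all of these medians but that of the choroid plexus markers were within 0.3 of 0.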

Other observations

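Markers of hippocampus and olfactory regions were measured as 10 genes, of which 5 were higher in striatum and 1 lower (median 0.90). Prox1, a factor of dentate granule cells, was higher at 1343, 1638, 1349 and 1743 against 630.0, 570.5, 456 and 584 (limma log2 fold change 1.44, SE 0.12, adjusted p = 8.8e-06). Dsp, a desmosome protein of granule cells and of epithelia, stood at 172, 16.3, 32.5 and 28.6 against 7.53, 7.61, 1.83 and 8.02 (2.66), or 1.97 without striatum replicate 5. Iyd, an iodotyrosine deiodinase, was higher at 26.2, 23.4, 19.1 and 51.9 against 3.77, 0.951, 1.83 and 2.01 (3.28). Lct, the lactase gene, was lower at 7.96, 0, 15.7 and 6.36 against 33.0, 53.2, 24.7 and 33.1 (-2.63), or -1.79 without striatum replicate 6. By sign 8 of the 10 members were higher in striatum and 2 lower, so that most but not all shared a direction. Dsp and Iyd passed the filter only through striatum, and Lct was low in both tissues.

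Further genes outside the lists were also among those with large differences. Adam33, a metalloprotease, stood at 6.82, 11.2, 4.49 and 18 in striatum and 331, 389, 467 and 371 in cortex (limma log2 fold change -5.28, SE 0.34, adjusted p = 1.8e-06), and the kinase Mylk3 at 5.69, 1.02, 2.24 and 5.3 against 146, 176, 202 and 165 (-5.40). Mylk3 passed the filter only through cortex. Across 16444 genes with an exon length, which are not independent replicates, the log2 fold change and the length correlated at Spearman's rho = -0.036.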
